A study of Homo sapiens with 18 samples.

Results

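Expression of the EGF receptor family was followed in the human prostate cancer line PC-3 after a brief exposure to fluid shear stress. The 9 genes were 5 ligands (AREG, EREG, HBEGF, TGFA and BTC), 3 receptors (EGFR, ERBB2 and ERBB3) and the receptor inhibitor ERRFI1. They were taken by their NCBI Gene ID from a table of raw counts for 28395 genes, and all 9 passed the filter on low counts that left 15189 genes for testing. A gene is said to be called, to have passed, or to be higher or lower by the test where its p-value, adjusted over all genes tested, was below 0.05.

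Sheared cells had been passed through a 30G needle from a syringe at 250 µL/s, and static cells stayed in suspension meanwhile. Both were then kept for 3 h, 12 h or 24 h in wells coated with poly-HEMA, which prevents attachment. The medium at this stage was DMEM with insulin, transferrin, selenium and 5 mg/mL bovine serum albumin, whereas the cells had been grown before in DMEM/F12 with serum. Cytosolic RNA, released with the detergent NP-40, made up 18 libraries, with 3 sheared and 3 static ones per time. Libraries that share a time and a replicate number were drawn from one pool, so shear was tested within pools. Pools of different times were independent, and the batch date of the 3 h libraries was not that of the later ones. All groups were the same line in suspension, so no attached cells were compared.

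EGF family ligands are made as membrane-anchored precursors and are released by metalloproteases of the ADAM family. They bind EGFR, and some of them also ERBB4, which then pair with each other or with ERBB2 and ERBB3 and drive the RAS and ERK cascade. ERBB2 has no known soluble ligand, ERBB3 binds neuregulins and has a weak kinase, and ERRFI1 (MIG6) binds the EGFR kinase and inhibits it. In epithelial cells AREG, EREG and HBEGF transcripts are known to be induced by the pathway they feed.

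The feature that makes the ligands a family is the EGF-like repeat, a loop domain held by paired cysteines. It is shown as coding sequence from the GENCODE 29 transcripts (GRCh38), 5′ to 3′, with the cysteine codons in capitals, because the spacing of those codons is what the 5 ligands share.
AREG: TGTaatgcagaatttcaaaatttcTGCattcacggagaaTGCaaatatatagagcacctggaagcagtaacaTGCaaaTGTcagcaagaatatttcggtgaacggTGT
EREG: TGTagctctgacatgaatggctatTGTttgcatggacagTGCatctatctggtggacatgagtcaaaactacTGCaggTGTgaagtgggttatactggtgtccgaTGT
HBEGF: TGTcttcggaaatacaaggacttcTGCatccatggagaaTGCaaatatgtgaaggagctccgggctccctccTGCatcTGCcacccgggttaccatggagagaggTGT
TGFA: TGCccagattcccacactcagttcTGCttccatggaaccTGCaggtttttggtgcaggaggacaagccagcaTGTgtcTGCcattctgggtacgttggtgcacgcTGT
BTC: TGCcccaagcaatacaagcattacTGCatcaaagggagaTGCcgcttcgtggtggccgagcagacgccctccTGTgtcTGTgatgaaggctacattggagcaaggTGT
Each stretch spans 36 codons or 108 bases. The 6 cysteine codons were separated by 7, 4, 10, 1 and 8 codons in every ligand.

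AREG and EREG, which lie next to each other, are shown with their promoters because AREG was called at every time and its neighbour at none. HBEGF, the only other one of the 5 ligands that was called, is shown beside them. Whether the shear effects on AREG and EREG differed was not tested, and EREG's 34 to 173 counts per library limit its precision. The windows are RefSeq promoters of GRCh38.p14, from 250 bases before to 50 bases after the start, printed 5′ to 3′ on the gene's strand. Capitals mark matches to any of 4 motifs searched on both strands: TGACGTCA (the cAMP response element), TGAGTCA or TGACTCA (the AP-1 site), GGAATG or CATTCC (the TEAD site), and TATAAA or TTTATA (the TATA box).
AREG, chr4:74444886-74445185, plus strand: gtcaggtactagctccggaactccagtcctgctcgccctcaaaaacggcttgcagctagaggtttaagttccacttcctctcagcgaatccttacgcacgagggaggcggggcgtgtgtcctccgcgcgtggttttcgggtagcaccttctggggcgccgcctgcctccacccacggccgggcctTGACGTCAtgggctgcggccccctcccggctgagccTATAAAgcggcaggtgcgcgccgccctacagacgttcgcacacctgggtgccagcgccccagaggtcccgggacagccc
EREG, chr4:74364895-74365194, plus strand: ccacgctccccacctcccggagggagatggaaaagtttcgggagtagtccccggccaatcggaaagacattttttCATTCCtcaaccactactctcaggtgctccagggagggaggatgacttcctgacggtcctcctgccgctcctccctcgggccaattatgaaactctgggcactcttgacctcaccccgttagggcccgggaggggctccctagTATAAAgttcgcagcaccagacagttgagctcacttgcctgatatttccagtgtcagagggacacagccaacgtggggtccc
HBEGF, chr5:140346554-140346853, minus strand: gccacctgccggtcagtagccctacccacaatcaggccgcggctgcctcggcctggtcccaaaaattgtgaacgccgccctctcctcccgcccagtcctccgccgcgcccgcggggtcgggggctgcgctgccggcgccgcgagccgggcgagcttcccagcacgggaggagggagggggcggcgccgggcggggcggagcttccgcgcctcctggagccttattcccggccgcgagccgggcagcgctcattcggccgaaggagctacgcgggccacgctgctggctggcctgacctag
The AREG window held TGACGTCA, with its first base at -65 from the start, and TATAAA at -29. The EREG window held CATTCC at -175 and TATAAA at -32, and the HBEGF window held none of the motifs. Among 35116 promoter windows of the same length, 1.85% held TGACGTCA, 4.95% the AP-1 site, 14.0% the TEAD site and 11.5% the TATA box. A match is a description of the letters and not a site of binding, and the motifs were chosen with results of these data known.

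By GENCODE 29 on GRCh38, AREG occupied chr4:74445134-74455009 and EREG chr4:74365143-74388751, both on the plus strand, with 80.0 kb between their starts. BTC lay at chr4:74744759-74794686 on the minus strand, and another ligand gene, EPGN, at chr4:74308473-74315307 on the plus strand. The 486.2 kb stretch that spans EPGN and BTC held 4 genes of the count table, all of them ligands. HBEGF was at chr5:140332843-140346631 and TGFA at chr2:70447280-70554193, both on the minus strand. EGFR was at chr7:55019021-55211628, ERBB2 at chr17:39687914-39730426 and ERBB3 at chr12:56076799-56103505, all on the plus strand, and ERRFI1 at chr1:8004404-8026308 on the minus strand. Genes on the opposite strand shared 5.53% (MIEN1) and 1.88% (PGAP3) of ERBB2's exon bases, 1.49% of EGFR's and 3.70% of ERRFI1's. The strand setting of the counting is not given in the sources used here, so reads in those stretches cannot be assigned.

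Libraries held 16400487 to 25862360 counts. The sheared 24 h replicate 3 library stood apart, with a TMM scaling factor of 0.721 against 0.888 to 1.11 in the others. All 6 markers chosen for the line, the epithelial EPCAM, KRT8, KRT18, KRT19 and CDH1 and also VIM, had a median of at least 1 CPM (a count scaled to the library's size). Of 6 markers of androgen-dependent prostate cells, 3 had such a median, KLK2 had no count, and KLK3 had counts in 1 library. None of 6 haematopoietic markers reached a median of 1 CPM (summed 0.450 to 2.16 CPM), and 2 of 7 fibroblast and endothelial markers did (COL1A1 and PECAM1), while COL1A2, DCN, PDGFRB, VWF and CDH5 stayed at or below 0.684 CPM in every library. COL1A1 was higher in sheared cells at 3 h (1.19 ± 0.16, edgeR adjusted p = 0.000298) and lower at 24 h (-0.48 ± 0.16, adjusted p = 0.0471), and PECAM1 was lower at 12 h (-0.67 ± 0.14, adjusted p = 0.0069). Among the epithelial markers, CDH1 was lower in sheared cells at 12 h (-0.51 ± 0.11, edgeR adjusted p = 0.00709) and 24 h (-0.49 ± 0.11, adjusted p = 0.00577). KRT8 was higher at 12 h (0.59 ± 0.13, adjusted p = 0.0069), and the others were not called for shear at any time. FOLH1, a marker of androgen-dependent prostate cells, was lower at 24 h (-0.39 ± 0.13, adjusted p = 0.045). RNAs retained in the nucleus summed to 48.6 to 76.0 CPM in sheared and 69.8 to 90.9 CPM in static libraries at 3 h, to 129 to 174 CPM in sheared and 134 to 156 CPM in static libraries at 12 h, and to 50.9 to 477 CPM in sheared and 91.3 to 166 CPM in static libraries at 24 h. The medians of the 3 nuclear RNAs tested were -0.82, -0.18 and 0.70 on the log2 scale for shear at 3 h, 12 h and 24 h, and none was called there (1, 0 and 1 at an unadjusted p below 0.05). The part of these markers in the results was not tested. In bulk RNA of this kind, fewer cells that express a gene and less RNA per cell cannot be told apart.

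Compared per length, as CPM per kb of exon, ERRFI1 and AREG were the most abundant members, with medians of 186 and 171 over the 18 libraries and overlapping ranges (72.5 to 292, and 73.2 to 386). TGFA came next (median 25.7, range 17.3 to 31.2), and the lowest AREG library lay above the highest TGFA library. ERBB2, EGFR, ERBB3, BTC and HBEGF followed with medians between 6.47 and 9.50, and the ranges of neighbours in that order overlapped. EREG was lowest (median 0.648, range 0.3545 to 1.275), below every HBEGF library, and its 34 to 173 counts per library limit its precision.

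**Figure D1:**
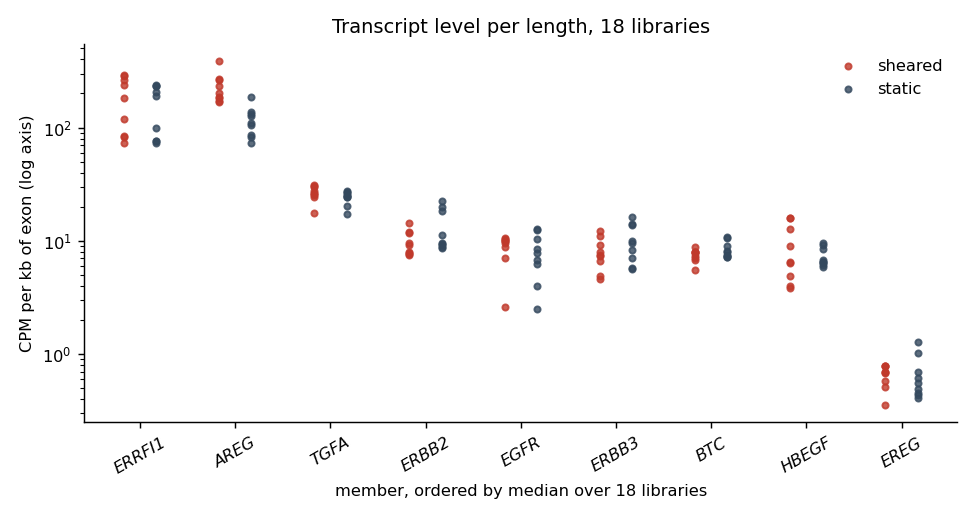
Transcript level of each member in CPM per kb of exon on a log axis, 1 point per library, 9 sheared (red, left) and 9 static (blue, right) for each gene, ordered by the median over 18 libraries. ERRFI1 and AREG sit highest with medians of 186 and 171, and EREG lowest with 0.648.

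AREG, a ligand that binds EGFR alone, was higher in sheared cells at all 3 times and in 9 of 9 pools. At 3 h, pools 1, 2 and 3 had 384, 435 and 309.8 CPM in sheared cells and 228, 207 and 181 CPM in static cells. At 12 h they had 282.5, 329.7 and 280 CPM in sheared cells and 142, 137 and 121 CPM in static cells. At 24 h they had 439, 300.4 and 636 CPM in sheared cells and 215.5, 175 and 304 CPM in static cells. The groups did not overlap at 3 h and 12 h. At 24 h both libraries of pool 3 were high, and the lowest sheared library (pool 2) fell just under the highest static one (pool 3). The log2 fold change was 0.87 ± 0.11 at 3 h (SE, adjusted p = 0.000175, edgeR), 1.16 ± 0.11 at 12 h (adjusted p = 1.11e-05) and 0.96 ± 0.11 at 24 h (adjusted p = 1.59e-05). These were 1.82-, 2.23- and 1.94-fold. The shear effects at the 3 times were not told apart: 12 h minus 3 h was 0.29 (edgeR adjusted p = 0.447), 24 h minus 12 h was -0.20 (adjusted p = 0.778) and 24 h minus 3 h was 0.09 (adjusted p = 0.805). Without the block for pools the 3 h call was lost (adjusted p = 0.133). Without the sheared and static libraries of 24 h replicate 3 the 24 h value was 0.92 ± 0.12 (adjusted p = 3.1e-05).

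HBEGF, a heparin-binding ligand of EGFR and ERBB4, was higher in sheared cells at 3 h. It had 48.25, 48.29 and 38.3 CPM in sheared pools 1, 2 and 3 and 27.6, 25.5 and 20.4 CPM in the static libraries of those pools. Every sheared library lay above every static one, a log2 fold change of 0.88 ± 0.14 (edgeR adjusted p = 0.00204). The call was lost without 3 h replicate 2 (adjusted p = 0.0614) and without the block for pools (adjusted p = 0.156).

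At 12 h HBEGF had 11.65, 12.0 and 19.55 CPM in sheared libraries and 19.2, 18.5 and 19.45 CPM in static ones. Pools 1 and 2 were lower after shear and pool 3 was level, and the log2 fold change of -0.44 ± 0.15 did not pass (edgeR adjusted p = 0.0687). Without 12 h replicate 3 it was -0.67 (adjusted p = 0.0191), and it also passed without 24 h replicate 3 (adjusted p = 0.0393) and when scaled by total counts (adjusted p = 0.0315). At 24 h HBEGF averaged 20.4 ± 6.13 CPM in sheared and 22.15 ± 6.01 CPM in static cells (SD, n = 3 each), the groups overlapped, and the log2 fold change was -0.13 ± 0.15 (edgeR adjusted p = 0.603). The shear effect itself differed between times, by -1.32 ± 0.21 for 12 h minus 3 h (adjusted p = 0.00232) and by -1.004 ± 0.21 for 24 h minus 3 h (adjusted p = 0.00565, edgeR). Both differences were lost without the block (adjusted p = 0.194 and 0.172) and held in the other 13 of 14 alternative settings of scaling, filter, tool and libraries left out. COL1A1 took a like course, with differences of -1.61 ± 0.22 for 12 h minus 3 h (edgeR adjusted p = 0.00113) and -1.66 ± 0.22 for 24 h minus 3 h (adjusted p = 0.00014). Its part in the HBEGF result was not tested.

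EREG, a ligand of EGFR and ERBB4 and the chromosomal neighbour of AREG, did not pass the threshold at any time. At 3 h it averaged 3.76 ± 0.778 CPM in sheared and 5.55 ± 1.91 CPM in static cells. At 12 h it had 3.94, 4.53 and 4.47 CPM in sheared libraries and 2.61, 3.205 and 2.50 CPM in static ones, which did not overlap. At 24 h it averaged 3.09 ± 0.975 CPM in sheared and 3.04 ± 0.829 CPM in static cells (SD, n = 3 each). All 3 pools were lower after shear at 3 h and all 3 were higher at 12 h. The log2 fold changes were -0.53 ± 0.21, 0.64 ± 0.22 and 0.01 ± 0.23 at 3 h, 12 h and 24 h (edgeR adjusted p = 0.376, 0.0703 and 0.977). The 12 h value passed without 24 h replicate 3 (adjusted p = 0.0432). The difference of 12 h minus 3 h was 1.17 ± 0.30 (adjusted p = 0.0663). It passed without the filter on low counts (adjusted p = 0.0281), without 24 h replicate 2 (0.0452) and without 24 h replicate 3 (0.0252).

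TGFA, a ligand that binds EGFR alone, averaged 127 ± 5.54 CPM in sheared and 128 ± 8.52 CPM in static cells at 3 h. At 12 h it had 149, 152 and 137 CPM in sheared libraries and 135, 130.4 and 124 CPM in static ones, with no overlap. At 24 h it averaged 124 ± 33.7 CPM in sheared and 103 ± 17.5 CPM in static cells (SD, n = 3 each), and the pool 2 library was lowest in each group, at 87.9 CPM in sheared and 85.85 CPM in static cells. It was higher after shear in 8 of 9 pools, and none of the log2 fold changes of -0.02, 0.17 and 0.25 passed (edgeR adjusted p = 0.987, 0.318 and 0.123). BTC, a ligand of EGFR and ERBB4, was higher in 4 of 9 pools and lower in 5. It averaged 22.8 ± 2.12, 19.35 ± 3.35 and 21.3 ± 1.83 CPM in sheared cells at 3 h, 12 h and 24 h, against 21.6 ± 1.34, 22.8 ± 2.57 and 26.9 ± 5.76 CPM in static cells. Its log2 fold changes were 0.07, -0.24 and -0.31 (edgeR adjusted p = 0.944, 0.331 and 0.178). Without 24 h replicate 2 the 24 h value was -0.53 (adjusted p = 0.0312).

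**Figure D2:**
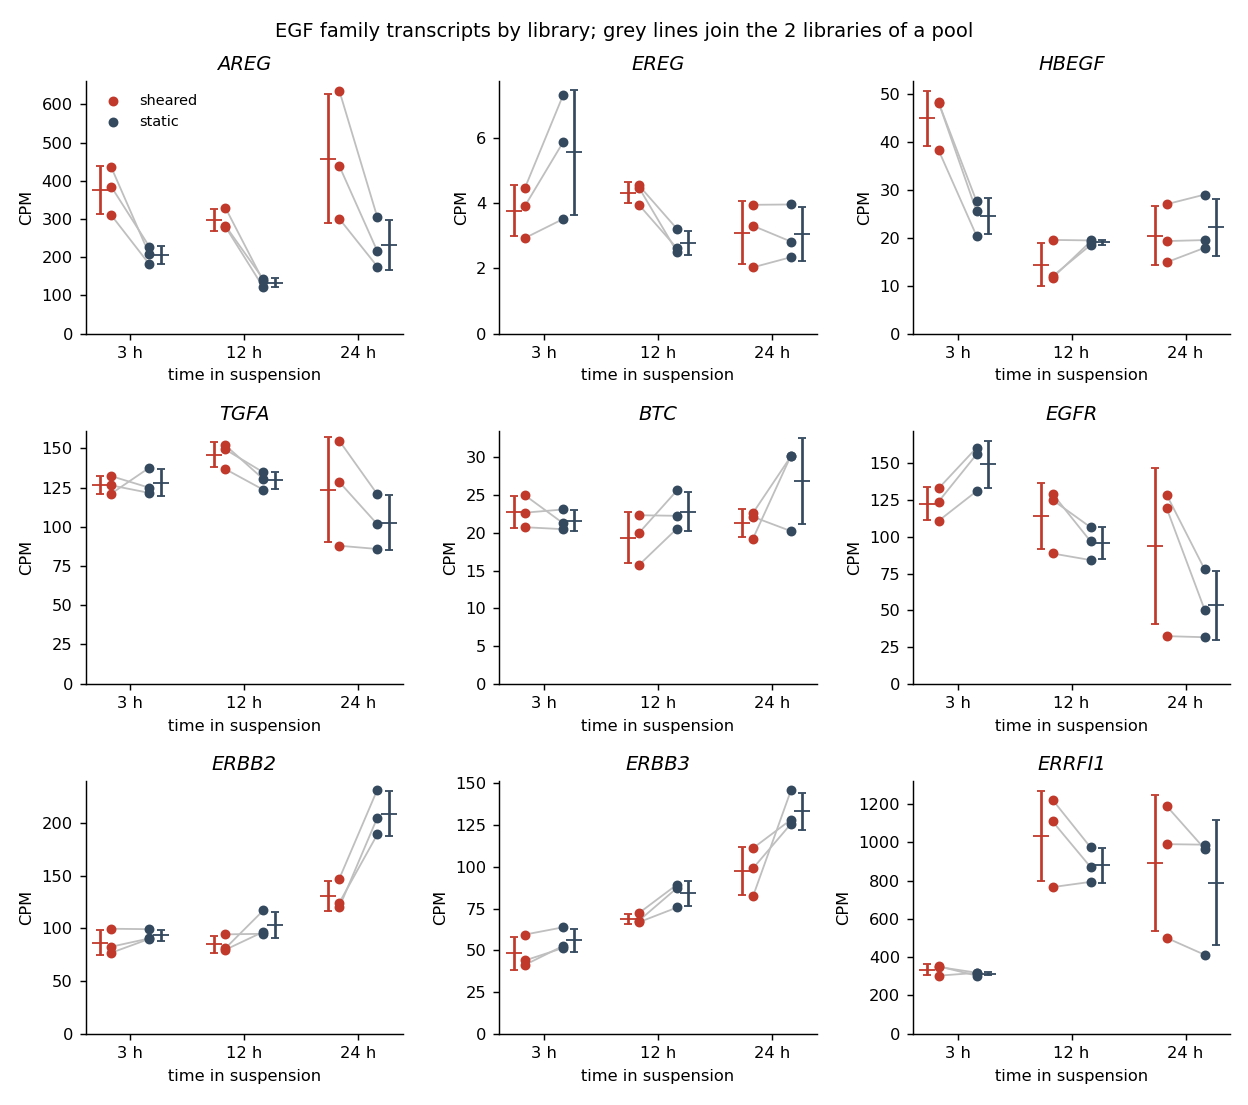
Transcript level of the 9 members in CPM, 1 panel per gene, with sheared (left) and static (right) libraries at 3 h, 12 h and 24 h. Points are libraries, lines join the sheared and the static library of a pool, and bars show the mean and SD of 3 libraries. AREG was higher in the sheared library of 9 of 9 pools, and ERBB3 lower in 9 of 9.

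As a share of the summed CPM per kb of the 5 ligands, AREG made up 82.1 ± 1.62% in sheared and 74.5 ± 0.630% in static cells at 3 h. It made up 81.1 ± 1.66% in sheared and 66.3 ± 1.31% in static cells at 12 h, and 86.9 ± 2.61% in sheared and 78.3 ± 3.08% in static cells at 24 h (mean ± SD, n = 3 each). The share was higher in the sheared library of 9 of 9 pools, and the ligand sum was too. AREG was most of that sum, so the sum is not a result apart from AREG's, and it depends on the scaling between libraries. The share is computed within a library and does not depend on the scaling between libraries. It does depend on which ligands are summed and on the exon lengths used. With EPGN and EGF added, a sum chosen after seeing the data, AREG made up 55.8 ± 1.49%, 55.3 ± 6.20% and 63.2 ± 7.80% in sheared cells at 3 h, 12 h and 24 h. In static cells it made up 41.9 ± 1.29%, 38.4 ± 0.452% and 55.9 ± 4.27%, and the share was again higher in the sheared library of 9 of 9 pools.

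The 3 receptors passed the threshold at 24 h and, in the model of all 18 libraries, at neither earlier time. EGFR, the receptor for all 5 ligands, had 133, 124 and 111 CPM in sheared and 161, 156 and 131 CPM in static libraries of pools 1, 2 and 3 at 3 h. At 12 h it had 129, 125 and 88.7 CPM in sheared and 96.9, 106.5 and 84.2 CPM in static libraries. At 24 h it had 129, 32.4 and 120 CPM in sheared and 77.9, 31.6 and 50.4 CPM in static libraries. It was lower after shear in all 3 pools at 3 h and higher in all 3 at 12 h and at 24 h, and the groups overlapped at each time.

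The log2 fold change of EGFR was -0.28 ± 0.15 at 3 h (edgeR adjusted p = 0.645), 0.24 ± 0.15 at 12 h (0.342) and 0.68 ± 0.16 at 24 h (0.00766). Within 24 h the pools differed, with log2 differences of 0.72, 0.03 and 1.24 in pools 1, 2 and 3. The 24 h call was lost without 24 h replicate 1 (adjusted p = 0.0506), without 24 h replicate 3 (log2 fold change 0.42, adjusted p = 0.0725), in a fit of the 24 h libraries alone (0.0886) and without the block (0.209). Without 24 h replicate 2 the value was 0.98. In a fit of the 3 h libraries alone, the 3 h value passed as lower in sheared cells (adjusted p = 0.00115). The shear effect differed by 0.97 ± 0.22 for 24 h minus 3 h (adjusted p = 0.0137). This held in 9 of 14 alternatives, and was lost without any of the 3 h replicates (adjusted p = 0.0522 to 0.0645), without 24 h replicate 1 (0.0502) and without the block (0.423). KCNQ1OT1, an RNA retained in the nucleus, was also called for 24 h minus 3 h (2.15 ± 0.59, edgeR adjusted p = 0.039), and the median of the nuclear RNAs there was 1.53. Their part in the EGFR result was not tested.

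ERBB2, the partner receptor with no known ligand, was lower in sheared cells at 24 h. It had 124.5, 147 and 120.4 CPM in sheared pools 1, 2 and 3 and 189, 232 and 205 CPM in the static libraries, and the groups did not overlap. The log2 fold change was -0.68 ± 0.11 (edgeR adjusted p = 0.000499), and it passed in all 15 alternative settings run. Without 24 h replicate 3, it was -0.61 ± 0.13 (adjusted p = 0.0027). At 12 h ERBB2 had 79.8, 94.4 and 81.2 CPM in sheared and 96.8, 95.0 and 117 CPM in static libraries, which did not overlap, although the log2 fold change of -0.27 ± 0.11 did not pass (adjusted p = 0.13). At 3 h it averaged 86.5 ± 11.85 CPM in sheared and 93.4 ± 5.19 CPM in static cells, a log2 fold change of -0.12 ± 0.11 (adjusted p = 0.863). The shear effect differed by -0.56 ± 0.16 for 24 h minus 3 h (edgeR adjusted p = 0.0433). That call held in only 5 of 14 alternatives. It was lost, with adjusted p between 0.051 and 0.222, without any of the 3 h or 24 h replicates, without 12 h replicate 1, without the block and with DESeq2's size factors.

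ERBB3, the neuregulin receptor with a weak kinase, was lower in the sheared library of 9 of 9 pools. At 24 h it had 111, 99.1 and 82.3 CPM in sheared and 128, 126 and 146 CPM in static libraries, with no overlap. The log2 fold change was -0.46 ± 0.12 (edgeR adjusted p = 0.0149). It was lost without 24 h replicate 3 (-0.26, adjusted p = 0.202), in a fit of the 24 h libraries alone (0.132) and without the block (0.0941). At 12 h it averaged 69.0 ± 2.94 CPM in sheared and 84.1 ± 7.41 CPM in static cells with no overlap, and at 3 h 48.2 ± 9.81 CPM in sheared and 55.9 ± 6.83 CPM in static cells (SD, n = 3 each). Those log2 fold changes, -0.28 ± 0.12 and -0.23 ± 0.12, did not pass (adjusted p = 0.142 and 0.636). When scaled by total counts, ERBB2 and ERBB3 passed at 12 h (-0.43 and -0.44, adjusted p = 0.0208 and 0.0442). That scaling moved the median of all genes by -0.15.

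The balance of the receptors can be read within a library. The ratio of EGFR to ERBB2 counts was 1.61, 1.61 and 1.11 in sheared and 1.77, 1.73 and 1.32 in static libraries at 3 h, lower after shear in all 3 pools. It was 1.62, 1.33 and 1.09 in sheared and 1.00, 1.12 and 0.7185 in static libraries at 12 h, and 1.03, 0.220 and 0.994 in sheared and 0.411, 0.136 and 0.246 in static libraries at 24 h. At both later times it was higher after shear in all 3 pools. In pool 2 at 24 h the ratio was low in both libraries. The sum of the 3 receptors in CPM per kb was lower in the sheared library of 9 of 9 pools, but barely so in pool 1 at 12 h (25.45 against 25.49). Unlike the ratios, this sum depends on the scaling between libraries.

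**Figure D3:**
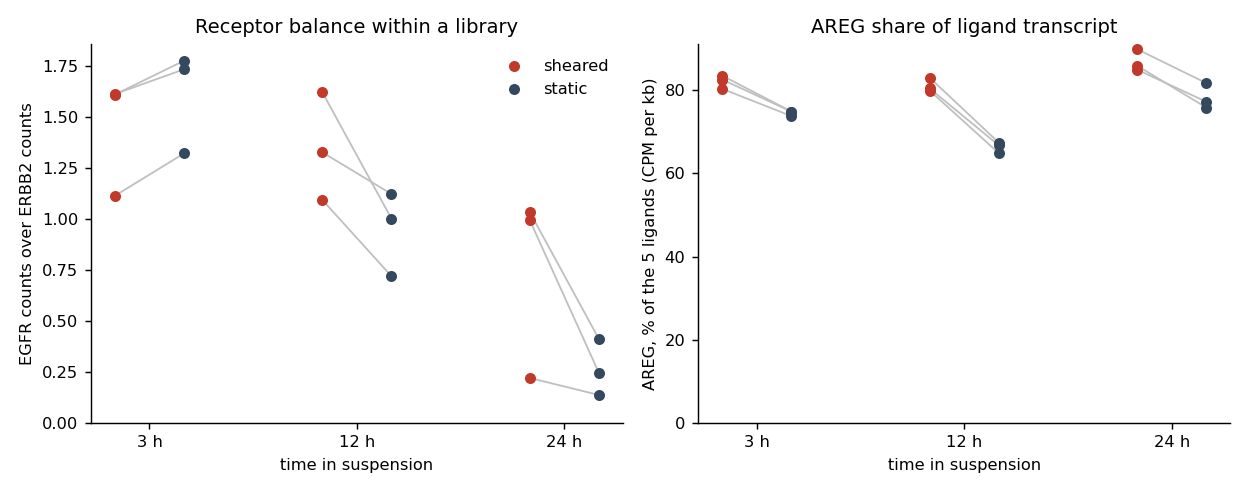
Ratio of EGFR to ERBB2 counts and the percent of the 5 ligands' summed CPM per kb that was AREG, for sheared (left) and static (right) libraries at 3 h, 12 h and 24 h, with lines joining the libraries of a pool. The ratio was lower after shear in 3 of 3 pools at 3 h and higher in 3 of 3 at 24 h, and the AREG share was higher in 9 of 9 pools.

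ERRFI1, the inhibitor of the EGFR kinase, did not pass the threshold at any time. It had 353, 303.5 and 349 CPM in sheared and 304, 318 and 319 CPM in static libraries at 3 h, and 1222, 1109 and 766 CPM in sheared and 974, 871 and 793.5 CPM in static libraries at 12 h. At 24 h it had 1190, 501 and 991 CPM in sheared and 966, 413 and 988 CPM in static libraries, so pool 2 was low in both. The log2 fold changes were 0.09, 0.21 and 0.19 (edgeR adjusted p = 0.904, 0.258 and 0.261), with 7 of 9 pools higher after shear.

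Counted over the 9 members, 2 were called at 3 h, AREG and HBEGF, both higher, where 1.46% of all genes tested were called. At 12 h 1 was called, AREG, against 10.8% of all genes. At 24 h 4 were called, AREG and EGFR higher and ERBB2 and ERBB3 lower, against 17.2% of all genes. The groups did not overlap for 2, 5 and 2 members at 3 h, 12 h and 24 h, while this held for 18.8%, 29% and 15.1% of all genes. The median log2 fold change of the members was -0.02, 0.17 and 0.01, beside -0.02 to 0.01 over all genes. The difference of 12 h minus 3 h was called for 1 member (HBEGF), against 1.41% of all genes, and that of 24 h minus 3 h for 3 members (EGFR higher, HBEGF and ERBB2 lower), against 5.89%. No member was called for 24 h minus 12 h by edgeR, where 0.665% of all genes were. There 1 member had an unadjusted p below 0.05, and DESeq2 also called 0.

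**Figure D4:**
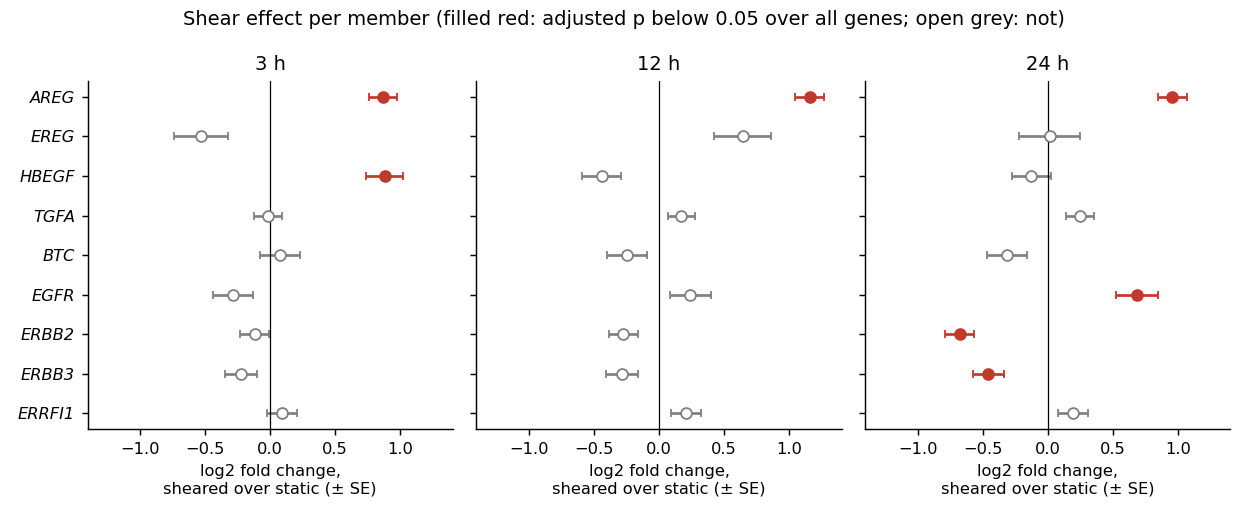
Log2 fold change of sheared over static cells with its SE for the 9 members at 3 h, 12 h and 24 h, from the model of all 18 libraries. Filled red points passed an adjusted p of 0.05 over all genes: AREG and HBEGF at 3 h (0.87 and 0.88), AREG at 12 h (1.16), and AREG, EGFR, ERBB2 and ERBB3 at 24 h (0.96, 0.68, -0.68 and -0.46).

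The authors' deposited table gave the same sign as this fit for 9 of 9 members at each time. In the authors' deposited table AREG passed an adjusted p of 0.05 at 3 h, 12 h and 24 h (log2 fold changes 0.88, 1.16 and 1.00), HBEGF at 3 h (0.87) and ERBB2 at 24 h (-0.66). EGFR and ERBB3 at 24 h did not pass in the authors' deposited table (0.83 and -0.43, adjusted p = 0.0984 and 0.0766).

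Levels also differed between times in suspension. From 12 h on, the libraries shared a batch date, so 24 h was compared with 12 h in each treatment, over independent pools. In static cells, 4 of 9 members were called, in a comparison where 32.5% of all genes were. Among the markers, KRT8, KRT19, KRT18 and EPCAM were called higher at 24 h, and the nuclear RNAs MALAT1 (-1.21 ± 0.22, edgeR adjusted p = 0.000828) and KCNQ1OT1 (-1.59 ± 0.51, adjusted p = 0.0257) lower. Their part in the members' values was not tested. ERBB2 averaged 209 ± 21.45 CPM at 24 h and 103 ± 12.3 CPM at 12 h, a log2 fold change of 1.01 ± 0.13 (edgeR adjusted p = 2.39e-05). ERBB3 averaged 133 ± 11.0 CPM at 24 h and 84.1 ± 7.41 CPM at 12 h, 0.65 ± 0.13 (adjusted p = 0.00117). AREG averaged 232 ± 65.9 CPM at 24 h and 133 ± 11.3 CPM at 12 h, 0.79 ± 0.17 (adjusted p = 0.00201). EGFR fell to 53.3 ± 23.3 CPM at 24 h, against 95.8 ± 11.2 CPM at 12 h, -0.86 ± 0.24 (adjusted p = 0.0169; SD, n = 3 each). The EGFR call was lost without 12 h replicate 1 or 2 or 24 h replicate 3 (adjusted p = 0.0543, 0.0772 and 0.0714) and without the filter on low counts (0.069).

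In sheared cells no member was called by edgeR for 24 h over 12 h, against 2.55% of all genes, although 3 had an unadjusted p below 0.05. DESeq2 called 1, ERBB2 (adjusted p = 0.0155). The log2 fold changes were 0.61 ± 0.17 for ERBB2 (edgeR adjusted p = 0.0733), 0.49 ± 0.19 for ERBB3 (0.163), 0.62 ± 0.25 for AREG (0.183) and -0.29 ± 0.38 for EGFR (0.705). ERBB2 passed without 24 h replicate 3 (adjusted p = 0.0397) and AREG without 24 h replicate 2 (0.0238). Whether the change over time differed between sheared and static cells is the 24 h minus 12 h difference of the shear effects, which passed for no member. ERRFI1 averaged 335 ± 27.4, 1033 ± 237.5 and 894 ± 354.5 CPM in sheared cells at 3 h, 12 h and 24 h, and 314 ± 8.785, 879 ± 90.3 and 789 ± 326 CPM in static cells. Every 12 h library lay above every 3 h one, but time and batch date cannot be told apart over that step.

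The genes whose 9 paired log2 CPM differences were most like those of a member, among 12415 genes, are given by Pearson's r over the 9 pools, as a description. For AREG they were CASTOR2 (r = 0.92) and RGS20 (0.91), for EREG FST and HDGF (both 0.95), and for HBEGF AMMECR1L (0.97) and RBBP6 (0.96). For TGFA they were LCMT1 and TSC1 (both 0.93), and for BTC ST7L (0.99) and BYSL (0.95). For EGFR they were SRGAP2C (0.99) and TXNIP (0.98), for ERBB2 AKR1A1 (0.97) and ST6GAL1 (0.96), for ERBB3 GPATCH8 (0.97) and PICART1 (0.96), and for ERRFI1 STEAP3 (0.95) and LOC728743 (0.94). These r values describe the shape of the differences over pools and not their size. CASTOR2, for example, had mean log2 differences of -0.12, 0.03 and -0.10 at 3 h, 12 h and 24 h.

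The remaining ERBB ligands and the receptor ERBB4 were mostly near the floor. NRG3 had 0 counts in all 18 libraries, NRG1 0 to 3 counts per library and ERBB4 0 to 15, and 4 of these 7 genes were tested. NRG2 had 2 to 26 counts per library and NRG4 9 to 123, and neither was called at any time (adjusted p of at least 0.517, edgeR). EPGN, the neighbour of EREG and a ligand of EGFR, was abundant, with a median of 110 CPM per kb (range 52.3 to 154). It was higher in sheared cells at 24 h, with 211, 201 and 199 CPM against 143, 94.9 and 143 CPM in static cells and no overlap (log2 fold change 0.71 ± 0.16, edgeR adjusted p = 0.00681). The call was lost without 24 h replicate 2 and under total counts (highest adjusted p = 0.0773). EGF itself was lower in sheared cells at 12 h, with 9.23, 7.86 and 7.11 CPM against 11.8, 12.5 and 12.2 CPM in static cells (log2 fold change -0.60 ± 0.18, edgeR adjusted p = 0.0446). That call held in 8 of 15 alternatives, and was lost without any of the 3 h or 12 h replicates and without the block (highest adjusted p = 0.227).

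Of 12 tested genes of ligand shedding, edgeR called 0 at 3 h (median log2 fold change -0.06), with 0 at an unadjusted p below 0.05 and 0 called by DESeq2. At 12 h and at 24 h, 16.7% of the list was called, beside 10.8% and 17.2% of all genes. At 12 h, ADAM12 (-0.75 ± 0.16, edgeR adjusted p = 0.00566) and ADAM17 (-0.38 ± 0.12, adjusted p = 0.0488) were lower, and at 24 h FURIN (-0.61 ± 0.12, adjusted p = 0.00206) and ADAM17 (-0.39 ± 0.12, adjusted p = 0.0353). ADAM17 is the main protease that releases AREG, and FURIN cleaves the propeptide of ADAM proteases. FURIN had 184, 172 and 161 CPM in sheared and 245, 292 and 253 CPM in static libraries at 24 h, with no overlap, and was called in all 15 alternatives. ADAM17 held in 5 of 15 at 12 h and in 7 of 15 at 24 h, and at each time was lost without any replicate of that time or of 3 h. At both times it was also lost without the block and in a fit of that time's libraries alone.
ADAM12 was lost without 12 h replicate 1 and without the block (highest adjusted p = 0.154).

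Of 25 adaptors and kinases between the receptors and ERK, edgeR called 0 at 3 h (median log2 fold change -0.04), with 3 at an unadjusted p below 0.05 and 0 called by DESeq2. At each later time 8% of the list was called, under the 10.8% and 17.2% of all genes at 12 h and 24 h, so the calls do not set the list apart. HRAS (0.61 ± 0.11, adjusted p = 0.00307) and MAP2K2 (0.44 ± 0.12, adjusted p = 0.0245) were higher at 12 h, and MAPK3 (0.41 ± 0.12, adjusted p = 0.0292) and HRAS (0.35 ± 0.11, adjusted p = 0.0455) at 24 h. HRAS is a RAS GTPase, and MAP2K2 and MAPK3 encode the kinases MEK2 and ERK1. HRAS at 12 h was lost without 12 h replicate 2 (adjusted p = 0.0518). At 24 h HRAS held in 4 of 15 alternatives, being lost without any replicate of 24 h or 3 h and without 12 h replicate 1. It was also lost there under total counts, without the filter on low counts, without the block and in a fit of the 24 h libraries alone. MAP2K2 held in 11 of 15 and was lost without 12 h replicate 1 or 2. MAPK3 held in 10 of 15 and was lost without 24 h replicate 1 or 3. MAP2K2 and MAPK3 were both lost under total counts and without the block, and MAPK3 also in a fit of the 24 h libraries alone. The list's median was -0.01 at 12 h and -0.03 at 24 h, beside -0.01 and -0.02 over all genes.

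Of 22 genes of receptor inhibition, ubiquitination and endocytosis, edgeR called 0 at 3 h (median 0.05), with 1 at an unadjusted p below 0.05 and 0 called by DESeq2. The share called was 18.2% at 12 h and 13.6% at 24 h, beside 10.8% and 17.2% of all genes. At 12 h, 2 were higher and 2 lower, led by STAM2, a sorting protein of endosomes (-0.57, adjusted p = 0.0138), and CBLC, a ubiquitin ligase of the CBL family (0.61, adjusted p = 0.014). At 24 h, 2 were higher and 1 lower, led by CBLC (0.50, adjusted p = 0.0234). STAM2 was lost without 12 h replicate 2 and without the block. CBLC held in 11 of 15 alternatives at 12 h and in 10 of 15 at 24 h, and at each of these times was lost without replicate 1 or 2 of that time, under total counts and without the block. The 24 h call of CBLC was also lost in a fit of the 24 h libraries alone.

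Of transcripts known to be induced by ERK activity, 25%, 31.2% and 37.5% were called at 3 h, 12 h and 24 h, beside 1.46%, 10.8% and 17.2% of all genes. Of the 16 tested, 4 were higher and 0 lower at 3 h (median 0.19; 6 and 4 at an unadjusted p below 0.05, 4 and 0 by DESeq2), 2 higher and 3 lower at 12 h (0.15), and 2 higher and 4 lower at 24 h (-0.02). At 3 h, PHLDA1 (0.66 ± 0.10, edgeR adjusted p = 0.00138), EPHA2 (0.75 ± 0.12, adjusted p = 0.00172) and DUSP4 (0.73 ± 0.14, adjusted p = 0.00654) had the smallest p. EPHA2 is an ephrin receptor and DUSP4 an ERK phosphatase. DUSP4 was lost without any of the 3 h replicates, PHLDA1 without 3 h replicate 1 and EPHA2 without 3 h replicate 3. EPHA2 and DUSP4 were also lost without the block. Over the alternatives, 1 to 7 of these 16 were called higher at 3 h and 0 to 4 lower. The ranges were 0 to 5 higher and 2 to 4 lower at 12 h, and 1 to 3 higher and 2 to 5 lower at 24 h.

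At 12 h and 24 h, 3 of these genes led the list at both times. FOSL1, an AP-1 subunit, had 877, 967.5 and 857 CPM in sheared and 487, 438 and 469 CPM in static libraries at 12 h, 0.95 ± 0.12 (edgeR adjusted p = 0.000142), and 0.90 ± 0.12 at 24 h (adjusted p = 8.24e-05). SPRY4, a feedback inhibitor of RAS and ERK signalling, had 34.8, 32.0 and 30.7 CPM in sheared and 72.7, 80.3 and 77.8 CPM in static libraries at 12 h. Its log2 fold change was -1.24 ± 0.14 at 12 h (adjusted p = 3.18e-05) and -1.21 ± 0.14 at 24 h (adjusted p = 1.3e-05, edgeR). DUSP6, a phosphatase of ERK, had 112, 87.0 and 87.3 CPM in sheared and 180, 182 and 169 CPM in static libraries at 12 h, -0.90 ± 0.13 (adjusted p = 0.000351), and -0.81 ± 0.13 at 24 h (adjusted p = 0.000316). The groups did not overlap at 12 h for any of these 3 genes. SPRY4 and DUSP6 were called in 15 of 15 alternatives at both times, and FOSL1 in 14 and 15, its 12 h call being lost without the block (adjusted p = 0.067).

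**Figure D5:**
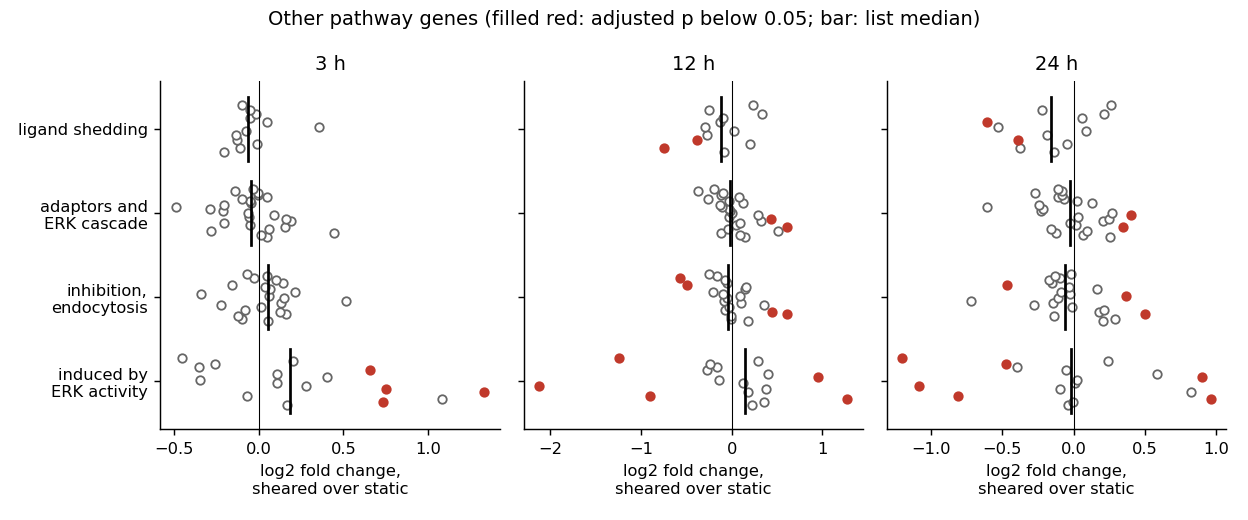
Log2 fold change of sheared over static cells for the tested genes of 4 other lists of the pathway at 3 h, 12 h and 24 h, 1 point per gene, with genes past an adjusted p of 0.05 over all genes filled, bars at the list medians and axes that differ between times. The medians of the shedding, adaptor and inhibition lists lay between -0.16 and 0.05, and of the 16 ERK-induced transcripts 4 were higher at 3 h and 2 higher and 4 lower at 24 h.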

How the data were processed

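The submitters' processing notes name STAR, DESeq2 and the build GRCh38.p13. The versions of the tools, the program that counted reads, and the annotation and strand setting it used were not given in the sources used here. Raw read counts for each NCBI Gene ID were deposited by the authors without normalization. Per the file headers, the authors' 3 comparison tables give the log2 fold change, sheared against static, with p-values and adjusted p-values. All per-sample columns of the count table were used. At 3 h, columns were matched to samples by time and letter, taking the letter that marks treatment to mean what it does in the names of the later libraries.

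Genes were kept by filterByExpr (minimum count 10, minimum total 15), which left 15189 of 28395 rows. Testing used the robust, legacy quasi-likelihood F test of edgeR 4.0.16 (R 4.3.3) after TMM scaling. The model covered all 18 libraries, blocked on 9 pools, gave each time its own shear effect, and left 6 degrees of freedom to the residual. Then p-values were adjusted over all genes by the Benjamini-Hochberg method, and a call is an adjusted p below 0.05. Differences between times were contrasts of that model. Times were compared within 9 sheared libraries (14672 genes) and within 9 static libraries (14804 genes). Standard errors were derived from each log2 fold change and its F statistic. CPM values use TMM factors, log2 CPM a prior count of 2, and exon lengths GENCODE 29, matched for 25468 rows. Each length joins all exons annotated for a gene, so values per kb, their order and their shares depend on that choice. Symbols were matched for 27745 rows from RefSeq, and promoters for 8 of 9 members. An exact permutation of 3 against 3 can give no p below 0.1, so none was run per gene. The labels describe replicates as biological replicates of a time.

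The pairing comes from the study's design text. As a check, each library's deviations from its group mean were correlated over genes between sheared and static libraries. Same-numbered libraries gave 0.0881 to 0.299 (3 h), -0.148 to 0.245 (12 h) and 0.379 to 0.504 (24 h), and others -0.242 to 0.130, -0.385 to 0.233 and -0.296 to -0.0924. The ranges stood apart only at 24 h and overlapped at 3 h and 12 h, so the check does not show the pairing at those times. The fit was tested on counts simulated from the fitted model, with known changes in 66 or 67 genes per fold at the time tested. No other gene had a shear effect there, so data with as many changes as these (2612 genes called at 24 h) were not covered. Of genes changed 1.5-, 2- and 4-fold, 35.8%, 76.1% and 87.9% were recovered at 3 h (15056 genes, 9 false among 142 calls), 41.8%, 76.1% and 93.9% at 12 h (15079 genes, 5 among 146) and 35.8%, 79.1% and 86.4% at 24 h (15075 genes, 14 among 148). The false share of the calls was thus above the threshold of 0.05 at 3 h and 24 h.

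All 9 members are named, every gene of the list of other ERBB ligands, up to 3 called genes per other list and time by the smallest p, and the 2 genes most like each member. Members, lists and motifs were chosen with earlier results of these data known. Alternatives were DESeq2's size factors, total counts, no filter, DESeq2 1.42.0, no replicate block, a fit per time and leaving out each replicate.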

Additional observations from a re-analysis of the deposited data

Results flagged for a closer look

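In 4 cases the shear effect differed between times by a test of the difference itself, in the model of all 18 libraries. The effect on HBEGF differed by -1.32 ± 0.21 on the log2 scale for 12 h minus 3 h (edgeR adjusted p = 0.00232), with all 3 pools higher after shear at 3 h and 2 of 3 lower at 12 h. For HBEGF at 24 h minus 3 h the difference was -1.004 ± 0.21 (adjusted p = 0.00565), with all 3 pools lower after shear at 24 h. The effect on EGFR differed by 0.97 ± 0.22 for 24 h minus 3 h (edgeR adjusted p = 0.0137), with all 3 pools lower after shear at 3 h and all 3 higher at 24 h. The effect on ERBB2 differed by -0.56 ± 0.16 for 24 h minus 3 h (edgeR adjusted p = 0.0433), with all 3 pools lower after shear at 24 h and 2 of 3 at 3 h. Beside these, the fibroblast marker COL1A1 differed by -1.61 for 12 h minus 3 h and -1.66 for 24 h minus 3 h, and the nuclear RNA KCNQ1OT1 by 2.15 for 24 h minus 3 h (edgeR adjusted p = 0.00113, 0.00014 and 0.039), and their part was not tested. In each of these, the 3 h libraries had a batch date of their own, so batch date and time cannot be told apart. Groups of 3 are too small for a test of single outlying libraries.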

How the results depend on the processing

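Over the alternatives run, 709 single-gene values kept their direction and their side of the threshold, 14 passed newly, 30 no longer passed and 8 changed sign. Without the replicate block for pools, the members called were 0 at 3 h, 2 at 24 h, 0 for 12 h minus 3 h and 0 for 24 h minus 3 h, in place of 2, 4, 1 and 3; the block changed the count by no more than 1.5 times elsewhere. A fit of the 6 libraries of 24 h alone called 2. Total counts called 4 at 12 h in place of 1, with the median of all genes moved by -0.15; no filter on low counts called 2 for 12 h minus 3 h; DESeq2 called 1 for sheared 24 h over 12 h in place of 0. Leaving out a replicate called 1 to 2 members at 3 h, 1 to 3 at 12 h, 2 to 5 at 24 h, 1 to 2 for 12 h minus 3 h, 1 to 3 for 24 h minus 3 h and 0 to 1 for sheared 24 h over 12 h. Changes of sign were in values that had not passed. Total counts gave -0.16 for EREG at 24 h and -0.026 for AREG at 24 h minus 3 h. Leaving out a replicate gave -0.068 to 0.064 for TGFA and -0.0079 to 0.12 for BTC at 3 h, -0.074 to 0.11 for EREG at 24 h, -0.11 to 0.0045 for ERBB3 at 12 h minus 3 h, -0.30 to 0.023 for ERBB3 at 24 h minus 12 h, and -0.60 to 0.12 for EGFR in sheared 24 h over 12 h. Adding EPGN and EGF to the ligand sum, an alternative chosen after seeing the data, lowered the AREG share by more than 1 SD in all 6 groups. With 34 to 173 counts per library, EREG is limited by depth.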
